A study of Mus musculus with 3 samples.

Results

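The genes described here encode the integrins and the proteins of the podosome, the adhesion structure of osteoclasts. They were taken from the deposited table by symbol: all protein-coding genes whose symbol starts with Itga, or with Itgb and a digit, and 21 named genes of integrin signalling, the actin core and small GTPases. This gave 51 of 54532 genes, of which 18 were alpha subunits, 9 beta subunits, 3 integrin binding proteins, 7 adhesion kinases and scaffolds, 9 actin core genes, 4 small GTPases and 1 exchange factor. RNA was sequenced from wild-type RAW264.7 cells, an established mouse line of macrophage type, and every library came from cells given RANKL (receptor activator of NF-κB ligand, the osteoclast-inducing cytokine) for 3 days. The control received no TSH (thyroid stimulating hormone) and carried the label 0 h, and the other cells then received TSH at 10 mU/mL, for 2 h in 1 sample and 24 h in the other. TSH and longer time in culture cannot be told apart in this design. The column names of the TSH libraries, T1 and T2, do not state which was the 2 h and which the 24 h sample, so both keep those names here. Each group had 1 library, so there is no replicate check and no test of any difference.

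Integrins are receptors made of an alpha and a beta subunit that bind matrix proteins or proteins on other cells. In osteoclasts the pair of Itgav and Itgb3 products, αvβ3, binds osteopontin and other proteins with an RGD sequence. It signals through the kinases Src and Pyk2, while talin and kindlin-3 bind its cytoplasmic tail and turn it on. Osteoclasts attach by podosomes, each an actin core built by the Arp2/3 complex under WASP and ringed by integrins, talin, vinculin and paxillin. On bone, podosomes gather into the sealing zone that encloses the resorbed area.

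Levels are given as FPKM (fragments per kilobase, corrected for gene length and depth, the authors' deposited unit), which can be compared between genes. The table allowed whole reads per gene to be recovered, and they summed to 16156926 in the control, 16809034 in T1 and 17390744 in T2. For a gene of 1 kb, 3 reads amounted to 0.171 to 0.186 FPKM. Osteoclast markers were present, with 7 of 8 at a mean of at least 1 FPKM and Calcr, the calcitonin receptor gene, below it. Their summed level was 2835 FPKM in the control, 2350 in T1 and 2276 in T2. The summed level of 6 macrophage markers, of which 5 passed and Mrc1 did not, was 1231, 1217 and 1219 FPKM. No marker of osteoblasts and fibroblasts, lymphocytes, neutrophils or epithelium reached 1 FPKM, and each of these lists summed to at most 0.250 FPKM in any library, with no reads for Col1a2, Cd3e, Cd4, Ly6g, S100a9, Cdh1 and Krt8 among others. Of 5 platelet and megakaryocyte markers only Pf4 passed, at 1.19 to 1.89 FPKM. In RNA from a whole culture, fewer cells of a type and less RNA per cell cannot be told apart.

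Of the 51 genes, 34 had a mean of at least 1 FPKM over the 3 libraries, the limit used for all counts. The genes nearest to it were Itgam and Itgax, with means of 1.19 and 1.15 FPKM, on the upper side, and Itgal and Itgae, with 0.611 and 0.517 FPKM, on the lower side. The 34 genes were deeply covered, with a median of 11284 reads over the libraries against 1833 over all 11069 genes past the limit. Beside the size of a change, a ratio of FPKM is given with its exact conditional 95% interval from the reads. This interval covers counting error only, and it compares libraries and not conditions. It takes each read as a separate molecule, so reads copied by PCR would make it too narrow.

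**Figure D1:**
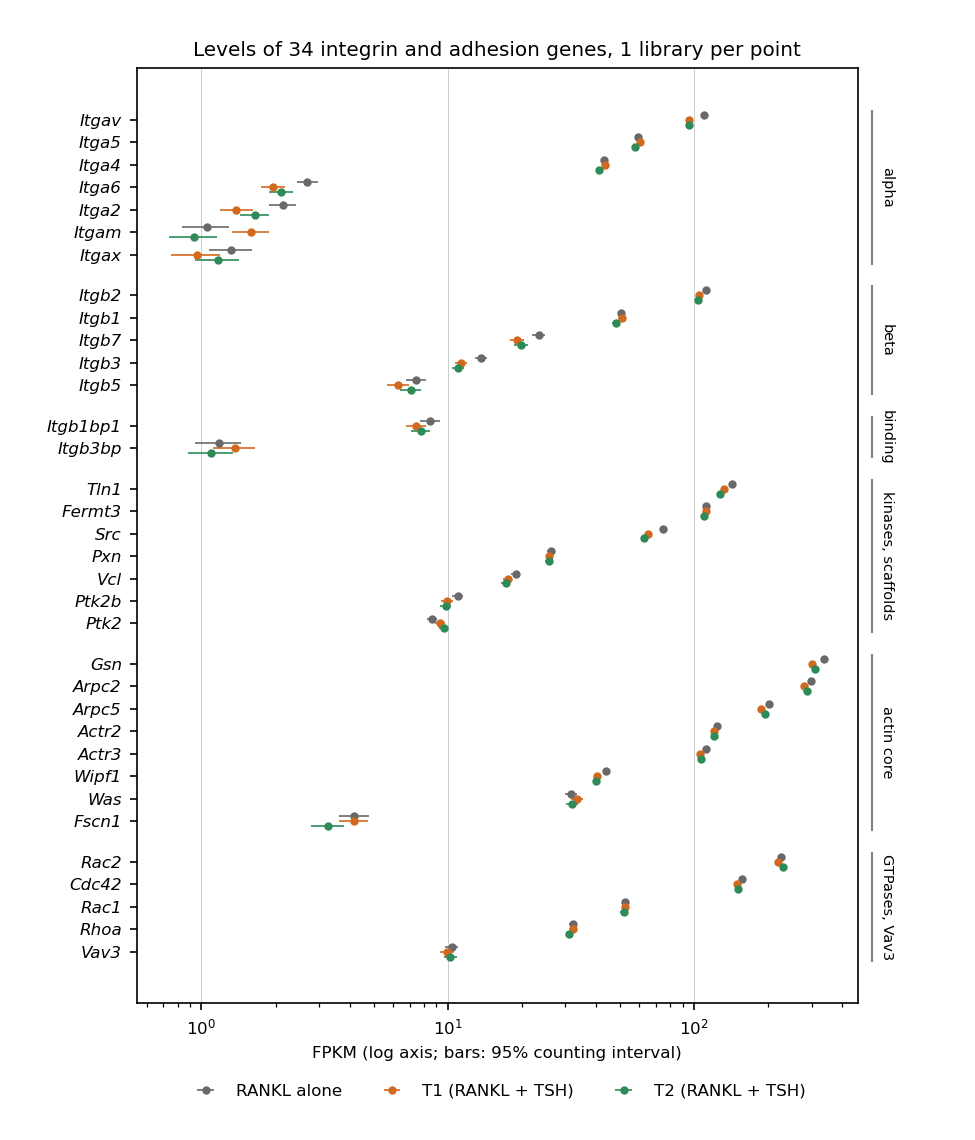
Level in FPKM (log axis) of the 34 genes past the limit in the library of RANKL alone and in the T1 and T2 libraries, grouped by role, with 95% counting intervals as bars. Gsn is at 335.8 FPKM and Itgam at 1.049 FPKM with RANKL alone, and the libraries of 1 gene lie close together on this scale.

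Most of the 34 genes were slightly lower in each TSH library than with RANKL alone. In T1, 27 were lower and 7 higher, and the counting interval left out a ratio of 1 for 19 lower genes and 2 higher ones. Over all genes past the limit that interval left out 1 for 12.2% as lower and 10.8% as higher, against 55.9% and 5.88% of the 34. In T2, 31 were lower and 3 higher, with 20 lower genes and 1 higher gene beyond counting error. Here the shares over all genes were 13.2% as lower and 10.2% as higher, against 58.8% and 2.94% of the 34. These comparisons share the library of RANKL alone, so a high or low value in it enters both.

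Deep coverage makes small changes pass the counting interval, so the same counts were made over genes with at least 5000 reads. This sets a floor and does not match depth gene by gene. Of the 21 genes of these families at that depth, 12 were lower and 1 higher beyond counting error in T1, while 22.5% of all 2382 such genes were lower and 18.5% higher. In T2, 14 were lower and 1 higher, against 27.0% and 17.2% of all such genes. The sizes were small. The median log2 difference of the 34 genes, on the scale of log2(FPKM + 1), was -0.09 in T1 and -0.07 in T2, beside -0.0014 and -0.0018 over all genes. With no limit on the level the T1 median was -0.024, and without the genes that have near-identical copies the T2 median was -0.11. A size rule of 1.2-fold on that scale was met in T1 by 3 lower genes (Itga2, Itga6 and Itgb7) and 1 higher gene (Itgam), where 5.11% of all genes were lower and 5.12% higher. In T2 it was met by 2 lower genes (Itgb3 and Fscn1) and no higher gene, where 4.91% of all genes were lower and 5.00% higher. These shares of 8.82% lower in T1 and 5.88% lower in T2 are near those of all genes.

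**Figure D2:**
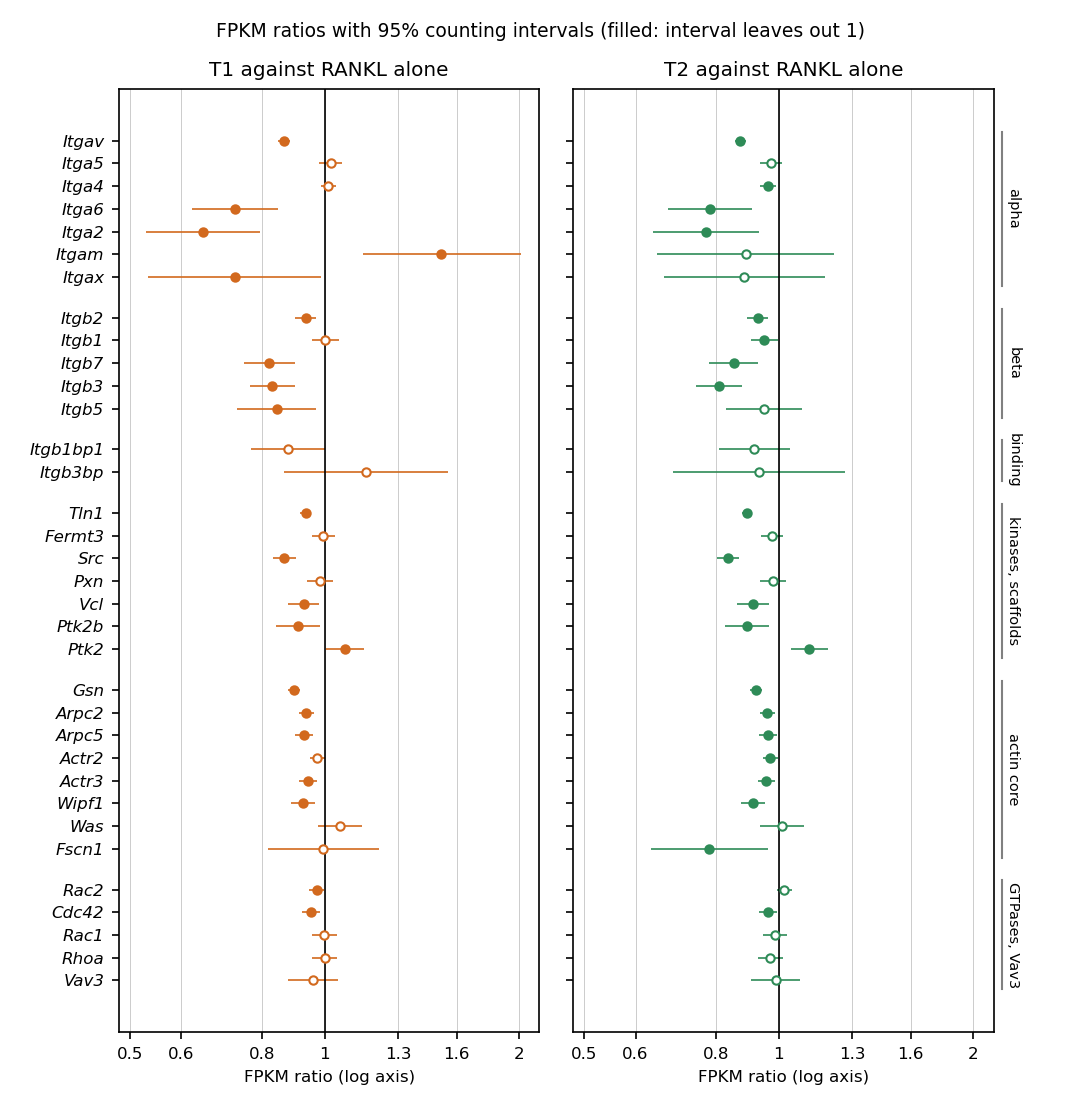
Ratio of FPKM to RANKL alone (log axis) in T1 and T2 for the 34 genes, with 95% counting intervals as bars and a line at 1. Most points lie below 1, with Itgam in T1 at 1.52 and Itga2 in T1 at 0.649 at the ends.

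Among the alpha subunits, Itgav was the most abundant and was lower in both TSH libraries. Itgav (chr2:83724397-83806916, plus strand, GRCm38) encodes αv, the subunit of the vitronectin receptors. Its level was 109.9 FPKM in the control, 94.99 in T1 and 95.75 in T2, from 19036, 17114 and 18027 reads. The ratio to RANKL alone was 0.865 (0.847 to 0.883) in T1 and 0.872 (0.854 to 0.890) in T2, and both TSH libraries lay below the control. It shares 634 exon bases with a transcript on the other strand, Gm13684, which had 42 to 66 reads.

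Itga5 encodes α5, which pairs with β1 as a fibronectin receptor. Its level was 59.4 FPKM in the control, 60.6 in T1 and 57.7 in T2. Its ratios of 1.02 (0.981 to 1.06) for T1 and 0.972 (0.934 to 1.01) for T2 both included 1. Itga4 encodes α4, which binds VCAM1 and fibronectin and pairs with β1 or β7. It was at 42.9, 43.5 and 41.3 FPKM, with ratios of 1.01 (0.985 to 1.04) for T1 and 0.961 (0.934 to 0.988) for T2. These abundant alpha genes other than Itgav thus showed no T1 difference beyond counting error.

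The 4 alpha genes of low level had wider intervals. Itga2, encoding the collagen-binding α2, was at 2.14 FPKM in the control, 1.39 in T1 and 1.65 in T2, from 246, 166 and 206 reads. Its ratio was 0.649 (0.530 to 0.793) in T1 and 0.771 (0.637 to 0.931) in T2. Itga6, encoding the laminin-binding α6, was at 2.69, 1.96 and 2.11 FPKM, with ratios of 0.726 (0.622 to 0.847) and 0.782 (0.674 to 0.907). Both genes were highest in the control and lowest in T1. The T2 to T1 ratios of 1.19 (0.963 to 1.47) for Itga2 and 1.08 (0.918 to 1.26) for Itga6 included 1. Itga6 has near-identical stretches in 7 other annotated genes, which held at most 1.003% of the summed reads.

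The leukocyte alpha genes differed in direction in T1. Itgam, encoding αM (CD11b) of monocytes and macrophages, had 85 reads in the control, 134 in T1 and 82 in T2, or 1.049, 1.59 and 0.931 FPKM. T1 was the high library, with a ratio of 1.52 (1.15 to 2.01), and T2 was near RANKL alone at 0.888 (0.647 to 1.22). An overlapping gene model, Gm49368, shares 3450 exon bases with Itgam on the same strand and was listed with 0 reads. How shared reads were counted is not given in the sources used here, so the Itgam level may be too low in every library. Itgax, encoding αX (CD11c), was at 1.32, 0.956 and 1.16 FPKM, with ratios of 0.726 (0.533 to 0.986) for T1 and 0.884 (0.663 to 1.18) for T2. Beside Itgam, the macrophage marker Adgre1 was at 1.82, 2.56 and 2.43 FPKM and Lyz2 at 194, 209 and 223 FPKM, both higher beyond counting error in T1 and T2. Csf1r, at 388, 371 and 370 FPKM, and Cd68, at 578, 562 and 548 FPKM, from the same list were lower beyond it in both. Cd14, at 69.2, 72.8 and 76.2 FPKM, was higher beyond it in T2, and the summed list was slightly lower in both TSH libraries. The part of macrophage content in the Itgam value was not tested.

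The other 11 alpha genes did not reach the limit. Itgal, encoding αL (CD11a), had 56, 71 and 76 reads, Itgae 40, 43 and 36, and Itga7 49, 40 and 60. Itga2b, the platelet subunit that also pairs with β3, had 6, 11 and 5 reads, and Itga10 had 7, 6 and 13. Itga1, Itga3, Itga8, Itga9, Itga11 and Itgad had 1 or 2 reads each over all libraries, below what this depth can measure.

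Itgb2 and Itgb1 were the most abundant beta genes, and Itgb3, the osteoclast beta gene, was lower in both TSH libraries. Itgb3 (chr11:104608000-104670476, plus strand) encodes β3 and was at 13.7 FPKM in the control, 11.3 in T1 and 11.03 in T2, from 1300, 1121 and 1141 reads. Its ratio was 0.829 (0.765 to 0.899) in T1 and 0.808 (0.745 to 0.875) in T2, and the T2 value met the size rule. Itgb5 encodes β5, which also pairs with αv, and was at 7.45, 6.28 and 7.07 FPKM. Its ratio was 0.842 (0.731 to 0.970) in T1 and 0.948 (0.828 to 1.09) in T2, so T2 did not differ beyond counting error.

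Itgb2 encodes β2 (CD18), the partner of αL, αM, αX and αD. It was at 112.0, 104.7 and 103.9 FPKM, with ratios of 0.935 (0.900 to 0.971) and 0.928 (0.894 to 0.963). Itgb7 encodes β7, the lymphocyte homing subunit, and was at 23.4, 19.2 and 19.9 FPKM, from 1044, 891 and 965 reads. Its ratio of 0.821 (0.750 to 0.898) in T1 met the size rule, and that in T2 was 0.851 (0.779 to 0.929). Both genes were lower in each TSH library than with RANKL alone. Itgb1, encoding β1, the partner of most alpha subunits, was at 50.6, 50.8 and 48.1 FPKM, with ratios of 1.003 (0.956 to 1.052) and 0.950 (0.905 to 0.997). Itgb4 had 9, 2 and 4 reads, Itgb8 had 2 reads in all, and Itgb6 and Itgb2l had none.

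Of the subunits as a group, 8 of the 12 alpha and beta genes past the limit were lower in T1 beyond counting error and 1 was higher, with a median log2 difference of -0.21. In T2 all 12 were lower, with a median of -0.10, and 8 were beyond counting error. Over all genes past the limit, 12.2% were lower and 10.8% higher beyond counting error in T1 and 13.2% and 10.2% in T2. Those genes were less deeply covered, with a median of 1833 reads against 3231 for the 12 subunit genes. In each library Itgav made up the largest share of the summed alpha FPKM, 49.7% in the control, 45.9% in T1 and 47.3% in T2. Itga5 held 26.9%, 29.3% and 28.5%, and Itga4 held 19.4%, 21.04% and 20.4%. These alpha shares take Itgam at its listed level, which may be too low. Of the summed beta FPKM, Itgb2 held 54.0% to 54.7%, Itgb1 24.4% to 26.4%, Itgb3 5.81% to 6.59% and Itgb5 3.27% to 3.72%.

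**Figure D3:**
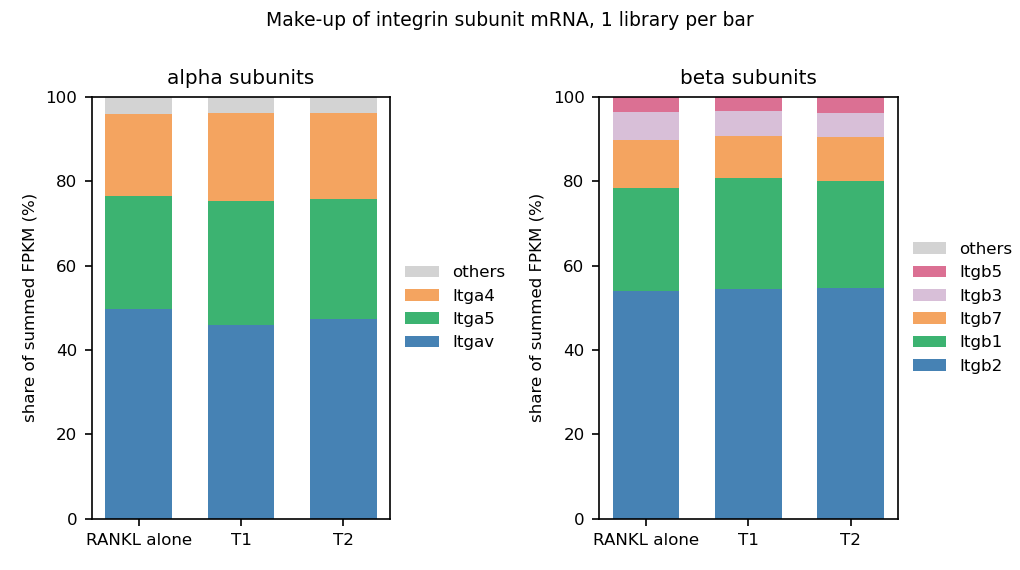
Share of each subunit gene in the summed FPKM of alpha genes and of beta genes, in percent, as stacked bars for the 3 libraries. Itgav takes 45.9% to 49.7% of alpha FPKM and Itgb2 54.0% to 54.7% of beta FPKM. Itgam enters at its listed level, which may be too low.

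The genes of a receptor pair were far apart in level. Itgav stood at 8.04 times the FPKM of Itgb3 in the control, 8.39 times in T1 and 8.68 times in T2. The ratio of Itgav to Itgb5 was 14.7, 15.1 and 13.5. In the same libraries Itgb2 was present at over 100 FPKM while its partners Itgam, Itgax and Itgal were at 0.529 to 1.59 FPKM. The listed Itgam level may be too low because of its same-strand overlap with Gm49368. RNA ratios of this kind do not give the amounts of receptor on the surface.

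Of the integrin binding proteins, Itgb1bp1, encoding ICAP1, a binder of the β1 tail, was at 8.48, 7.45 and 7.78 FPKM. Its ratio was 0.878 (0.770 to 1.001) in T1 and 0.917 (0.806 to 1.04) in T2. Itgb3bp, named for binding β3 and also a centromere protein gene, was at 1.18, 1.36 and 1.096 FPKM, with intervals that included 1. Itgb1bp2, a muscle gene encoding melusin, had 8, 10 and 6 reads. None of the 3 genes differed beyond counting error in either TSH library. The exons of Itgb1bp1 and Itgb3bp overlap those of Cpsf3 and Pgm1 on the other strand, and how strand was counted is not given in the sources used here.

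Among the 7 kinases and scaffolds, 4 were lower and 1 was higher beyond counting error in each TSH library. At a median of 10716 reads these genes compare with all genes of at least 5000 reads, of which 22.5% were lower and 18.5% higher in T1 and 27.0% and 17.2% in T2. Src (chr2:157418444-157471862, plus strand), the kinase gene whose loss leaves osteoclasts unable to form a ruffled border, was at 75.2 FPKM in the control, 65.1 in T1 and 62.8 in T2. These came from 5299, 4774 and 4808 reads, and the ratio was 0.867 (0.833 to 0.901) in T1 and 0.835 (0.803 to 0.869) in T2. Both TSH libraries lay below RANKL alone. The focal adhesion kinase genes went in opposite directions. Ptk2b, encoding Pyk2, the form that αvβ3 engages in osteoclasts, was at 10.96, 9.96 and 9.80 FPKM, with ratios of 0.908 (0.840 to 0.982) and 0.894 (0.827 to 0.966). Ptk2, encoding FAK, was at 8.63, 9.29 and 9.62 FPKM, with ratios of 1.08 (1.01 to 1.15) and 1.11 (1.04 to 1.19). Ptk2 was the single gene of the 34 that was higher beyond counting error in T2, and its near-identical copy in the annotation had 0 reads.

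The ratio of Ptk2b to Ptk2 within a library was therefore 1.27 (1.18 to 1.37) with RANKL alone, 1.07 (0.997 to 1.15) in T1 and 1.02 (0.948 to 1.09) in T2. The difference in this ratio was -0.24 (-0.39 to -0.10) in T1 and -0.32 (-0.46 to -0.17) in T2 on the log2 scale, with approximate counting intervals. The pair was singled out after its values were seen.

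Tln1 encodes talin 1, which links beta tails to actin, and was at 142.3, 132.9 and 127.1 FPKM, with ratios of 0.934 (0.917 to 0.952) and 0.893 (0.877 to 0.910). It was lowest in T2, and its interval was narrow at 21829 to 22497 reads a library. Vcl encodes vinculin, which binds talin and actin, and was at 18.9, 17.5 and 17.2 FPKM, with ratios of 0.927 (0.877 to 0.981) and 0.912 (0.863 to 0.965). Vcl shares 2090 exon bases with Ap3m1 on the other strand, a gene with 1670, 1843 and 2005 reads, and Tln1 shares 360 with Creb3, so reads of these pairs may be mixed. Fermt3, encoding kindlin-3, was at 112.4, 111.8 and 109.6 FPKM, and Pxn, encoding paxillin, at 26.3, 25.8 and 25.7 FPKM. Neither differed beyond counting error, with ratios between 0.975 and 0.995.

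RefSeq promoter entries on GRCm38.p6 were found for 36 of the 51 genes, in 45 windows of 300 bases. No gene met the size rule in both TSH libraries, which was the planned reason to show a promoter. Those of Itgav, Src and Vcl were chosen after their values were seen, because a receptor, a kinase and a scaffold gene were each lower beyond counting error in both. The stretches are the 250 bases before an annotated start, 5′ to 3′ on the plus strand: chr2:83724147-83724396 for Itgav, chr2:157424043-157424292 for Src and chr14:20929148-20929397 for Vcl. Those of Itgav and Vcl end just before the first base of the gene. That of Src lies inside the gene, which begins at 157418444, so its start is an internal one. Capitals mark GAGGAA, a core bound by ETS factors such as PU.1, or its reverse complement TTCCTC, and in Vcl the CArG box, the site of SRF.
Itgav: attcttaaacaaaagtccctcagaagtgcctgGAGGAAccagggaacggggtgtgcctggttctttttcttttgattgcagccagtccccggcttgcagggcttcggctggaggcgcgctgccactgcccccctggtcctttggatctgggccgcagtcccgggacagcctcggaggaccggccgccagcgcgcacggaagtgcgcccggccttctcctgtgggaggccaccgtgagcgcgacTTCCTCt
Src: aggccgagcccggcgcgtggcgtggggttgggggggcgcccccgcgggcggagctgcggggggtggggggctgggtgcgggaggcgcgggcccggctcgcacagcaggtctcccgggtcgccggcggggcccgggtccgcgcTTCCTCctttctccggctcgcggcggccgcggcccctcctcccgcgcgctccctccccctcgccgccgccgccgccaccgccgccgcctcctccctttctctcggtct
Vcl: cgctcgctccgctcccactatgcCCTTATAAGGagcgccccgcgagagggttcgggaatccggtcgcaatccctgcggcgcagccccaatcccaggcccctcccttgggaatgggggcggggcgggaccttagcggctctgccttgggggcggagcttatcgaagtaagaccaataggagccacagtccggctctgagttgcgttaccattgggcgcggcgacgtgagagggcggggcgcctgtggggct
In Itgav, GAGGAA begins at -218 and TTCCTC at -7, counted from the start. In Src, TTCCTC begins at -108, and in Vcl the CArG box spans -227 to -218. On both strands GAGGAA was found in 16 of the 45 windows (35.6%) and in 28.3% of all 32851 RefSeq promoters. The CArG box was in 2 windows, those of Vcl and Itgb6, and in 1.63% of all promoters. The NFAT core GGAAAA was in 6 windows (13.3%) and in 23.4% of all. A GAGGAA followed by AA also holds GGAAAA, so these motifs can overlap, and a match describes letters and not a bound site.

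Of the 9 actin core genes 8 passed the limit, and 5 were lower beyond counting error in T1 and 7 in T2. Of all genes of at least 5000 reads, 22.5% were lower in T1 and 27.0% in T2. That is a floor and not a match in depth, since the median of the actin core genes was 23800 reads. None of the 8 was higher beyond counting error in T1 or T2, where 18.5% and 17.2% of the genes of at least 5000 reads were. Gsn, encoding gelsolin, which severs and caps filaments, was the most abundant of the 51 genes at 335.8, 301.3 and 309.6 FPKM. Its ratio was 0.897 (0.878 to 0.917) in T1 and 0.922 (0.903 to 0.942) in T2, below RANKL alone in both. The Arp2/3 subunit gene Arpc2 was at 299.0, 280.2 and 287.0 FPKM, and Arpc5 at 202.1, 187.8 and 194.1 FPKM. Their ratios were 0.937 (0.911 to 0.964) and 0.929 (0.900 to 0.960) in T1. In T2 both genes were at 0.960. The actin-related subunits Actr2 and Actr3 were at 123.7, 120.6 and 120.0 FPKM and at 112.1, 105.6 and 107.2 FPKM. Over these 4 complex genes the ratios ran from 0.929 to 0.975 in T1 and from 0.957 to 0.970 in T2, all below 1. The interval of Actr2 in T1, 0.949 to 1.002, included 1, and the other intervals of these genes left it out. Arpc2, Actr2 and Actr3 have near-identical copies, and these held at most 3.34% of the summed reads.

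The genes that activate the Arp2/3 complex did not move together. Wipf1, encoding WIP, which holds and protects WASP, was at 43.8, 40.6 and 40.0 FPKM, with ratios of 0.925 (0.886 to 0.967) and 0.912 (0.874 to 0.953). Was, encoding WASP itself, was at 31.7, 33.5 and 32.0 FPKM, with ratios of 1.06 (0.976 to 1.14) and 1.01 (0.933 to 1.09). Fscn1, encoding the bundling protein fascin, was at 4.18, 4.16 and 3.26 FPKM, from 203, 210 and 172 reads. T2 was the low library for Fscn1, with a ratio of 0.780 (0.633 to 0.960), while T1 was at 0.995 (0.816 to 1.21). Cttn, encoding cortactin, had 3, 0 and 2 reads, whereas its haematopoietic relative Hcls1 was at 51.7, 51.3 and 50.02 FPKM.

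The small GTPase genes that act on actin, and the exchange factor gene Vav3, stayed close to RANKL alone. Rac2, encoding the haematopoietic Rac, was at 225.0, 218.7 and 229.4 FPKM, with ratios of 0.972 (0.947 to 0.998) for T1 and 1.02 (0.994 to 1.046) for T2. Cdc42, which activates WASP, was at 156.3, 148.8 and 150.3 FPKM, with ratios of 0.952 (0.921 to 0.983) and 0.961 (0.931 to 0.992). Rac1 was at 52.6, 52.5 and 51.8 FPKM and Rhoa, the GTPase of contraction, at 32.1, 32.1 and 31.2 FPKM. Vav3, the exchange factor for Rac in osteoclasts, was at 10.4, 9.94 and 10.2 FPKM. Rac1, Rhoa and Vav3 had intervals that included 1 in both TSH libraries, and Rac1 overlaps Daglb on the other strand over 2309 exon bases.

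Between the TSH libraries the differences went both ways, and fewer genes differed beyond counting error than against RANKL alone. Of the 34 genes, 15 were higher and 19 lower in T2 than in T1, with a median log2 difference of -0.01. Beyond counting error 3 were higher (Gsn, Arpc5 and Rac2) and 6 lower (Itga4, Itga5, Itgam, Itgb1, Tln1 and Fscn1), where 7.93% of all genes were higher and 10.1% lower. Scaled to equal totals, this split became 8 higher and 4 lower. Of the 21 genes with at least 5000 reads 3 were higher and 4 lower, against 11.3% and 20.6% of all genes at that depth. The size rule was met by no higher gene and by 2 lower ones, Itgam and Fscn1, where 4.12% of all genes were higher and 4.33% lower. Itgam was at 0.586 (0.439 to 0.777) of its T1 value and Fscn1 at 0.784 (0.637 to 0.963), while Rac2 was at 1.049 (1.02 to 1.08).

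Paralogues in the same pathway showed which form of each gene made up most of the RNA. Tln1 was at 189, 183 and 210 times the FPKM of Tln2, and Fermt2 had 8 to 12 reads a library while Fermt1 had none, beside the abundant Fermt3. Rac2 was at 4.28, 4.17 and 4.42 times the FPKM of Rac1. Was was at 8.83, 8.42 and 8.61 times that of Wasl, encoding N-WASP. Vav1 was at 3.10, 2.81 and 2.77 times the FPKM of Vav3, and Lpxn, encoding leupaxin, at 2.01, 2.09 and 2.04 times that of Pxn. Among Src family kinases, Src stood at 2.88, 2.58 and 2.68 times Lyn.

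**Figure D4:**
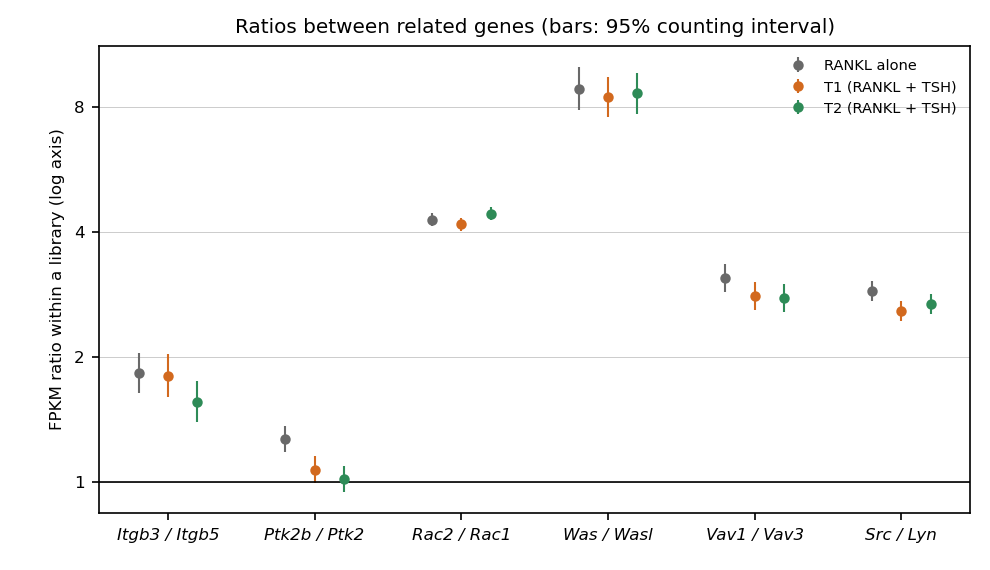
Ratio of FPKM (log axis) between related genes within each of the 3 libraries, for Itgb3 to Itgb5 and for paralogue pairs among kinases, GTPases, WASP genes and Vav genes, with 95% counting intervals as bars. The ratio of Ptk2b to Ptk2 is 1.27 with RANKL alone and 1.07 and 1.02 in T1 and T2, and that of Was to Wasl is 8.42 to 8.83.

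Lists of other genes of the pathway were read on the same scale. Scaling to equal totals moved the median of all genes by -0.02 in T1 and 0.0064 in T2. The list of 42 other adhesion plaque and podosome signalling genes had 34 past the limit. In T1, 21 were lower and 13 higher, 8 and 3 beyond counting error, with a median log2 difference of -0.03. This share of 23.5% lower is near the 22.5% of all genes of at least 5000 reads, while 8.82% higher stands beside 18.5% of them. The list had a median of 7780 reads. In T2, 27 were lower and 7 higher, 11 and 1 beyond counting error, with a median of -0.07. Here 32.4% lower and 2.94% higher stand beside 27.0% and 17.2% of the deep genes. Cblb, encoding a ubiquitin ligase, was at 2.65, 1.91 and 2.21 FPKM, with a T1 ratio of 0.721 (0.624 to 0.832). Actn1, encoding the actin cross-linker α-actinin 1, was at 62.0, 59.3 and 53.2 FPKM, with a T2 ratio of 0.858 (0.826 to 0.891). Parvg, encoding the haematopoietic parvin, went the other way, at 57.7, 63.8 and 61.9 FPKM with ratios of 1.11 (1.052 to 1.16) and 1.07 (1.02 to 1.13). Asap1 was at 1.14 (1.01 to 1.30) in T1. Lims2 at 0.828 (0.665 to 1.03) and Fyn at 1.098 (0.970 to 1.24) in T2 had intervals that included 1. Fyb, at 0.797 (0.661 to 0.959) in T1, is uncertain because a near-identical copy held 93.2% to 94.7% of the summed reads.

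Of 46 other Arp2/3, WAVE and actin filament genes, 40 passed. In T1, 27 were lower and 13 higher, 15 and 1 beyond counting error, with a median of -0.05. In T2, 29 were lower and 11 higher, 22 and 5 beyond counting error, with a median of -0.07. The lower shares of 37.5% and 55% stand beside 22.5% and 27.0% of genes of at least 5000 reads. The higher shares of 2.5% and 12.5% stand beside 18.5% and 17.2% of those genes. The median was 12314 reads in the list. Dstn, encoding destrin, which depolymerises filaments, was at 134.5, 105.0 and 117.0 FPKM, with a T1 ratio of 0.781 (0.746 to 0.818) and a T2 ratio of 0.870 (0.833 to 0.909). Actg1, encoding γ-actin, was at 518.3, 444.7 and 445.8 FPKM, a ratio of 0.858 (0.842 to 0.875) and 0.860 (0.844 to 0.877), and Actb, encoding β-actin, had ratios of 0.966 (0.955 to 0.978) and 0.918 (0.907 to 0.929). Both actins were thus lower in each TSH library. Nckap1, a WAVE complex gene, was at 0.837 (0.762 to 0.919) in T1 and 0.852 (0.777 to 0.934) in T2. Tmsb10, encoding a thymosin that binds actin monomers, was higher, at 22.3, 27.3 and 27.8 FPKM with ratios of 1.23 (1.09 to 1.39) and 1.25 (1.11 to 1.41), and has 6 near-identical copies with 6.70% to 7.47% of the summed reads. Svil at 1.18 (0.958 to 1.46) in T1 included 1, and Wipf2 was at 1.16 (1.045 to 1.29) in T2.

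Of 26 integrin ligand genes 10 passed. In T1, 5 were lower and 5 higher, 2 and 1 beyond counting error, with a median of -0.03. In T2, 8 were lower and 2 higher, 4 and 1 beyond counting error, with a median of -0.06. These lower shares were 20% and 40%, and the higher share was 10% in each. The list had a median of 6530 reads. Of genes of at least 5000 reads, 22.5% and 27.0% were lower and 18.5% and 17.2% higher. Spp1, encoding osteopontin, the αvβ3 ligand that osteoclasts make themselves, was at 475.4, 376.8 and 452.3 FPKM, so T1 was the low library. Its ratio was 0.793 (0.772 to 0.814) in T1 and 0.952 (0.928 to 0.975) in T2. Mfge8, whose product carries an RGD sequence, was at 0.875 (0.834 to 0.917) and 0.887 (0.847 to 0.930). Cd47 was at 0.897 (0.834 to 0.965) in T2. Lgals3bp was higher, at 9.60, 11.8 and 12.5 FPKM with ratios of 1.23 (1.08 to 1.39) and 1.30 (1.15 to 1.48). Lamc1 in T1 and Adam15 in T2, at 1.04 each, had intervals that included 1, and Fn1, encoding fibronectin, had 0 reads in all 3 libraries.

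The SRF and MRTF list, genes of an actin-sensing transcription pathway, had 17 of 19 symbols in the table and 11 past the limit, and Actb, Actg1 and Vcl also stand in the groups above. In T1, 7 were lower and 4 higher, 3 and 1 beyond counting error, with a median of -0.05. The 3 lower genes were Actb, Actg1 and Vcl, which are thus counted again here. In T2, 5 were lower and 6 higher, 4 and 0 beyond counting error, with a median of 0.02. The 4 were Actb, Actg1, Vcl and Cnn2. Over all genes past the limit 12.2% and 13.2% were lower, and 10.8% and 10.2% higher, at a lower depth than the median of 3702 reads in this list. Srf itself was at 23.9, 27.1 and 24.3 FPKM, a ratio of 1.14 (1.050 to 1.23) in T1. Cnn2, encoding a calponin, was at 3.40, 2.79 and 2.62 FPKM, with a T2 ratio of 0.770 (0.595 to 0.997). Tagln2 in T1, and Egr1 and Mkl1 in T2, had intervals that included 1, at 1.02, 1.12 and 1.06. Prkaa1, the AMPK catalytic gene read beside these lists, was at 12.8, 13.4 and 14.0 FPKM, with ratios of 1.046 (0.957 to 1.14) for T1 and 1.096 (1.005 to 1.196) for T2.

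**Figure D5:**
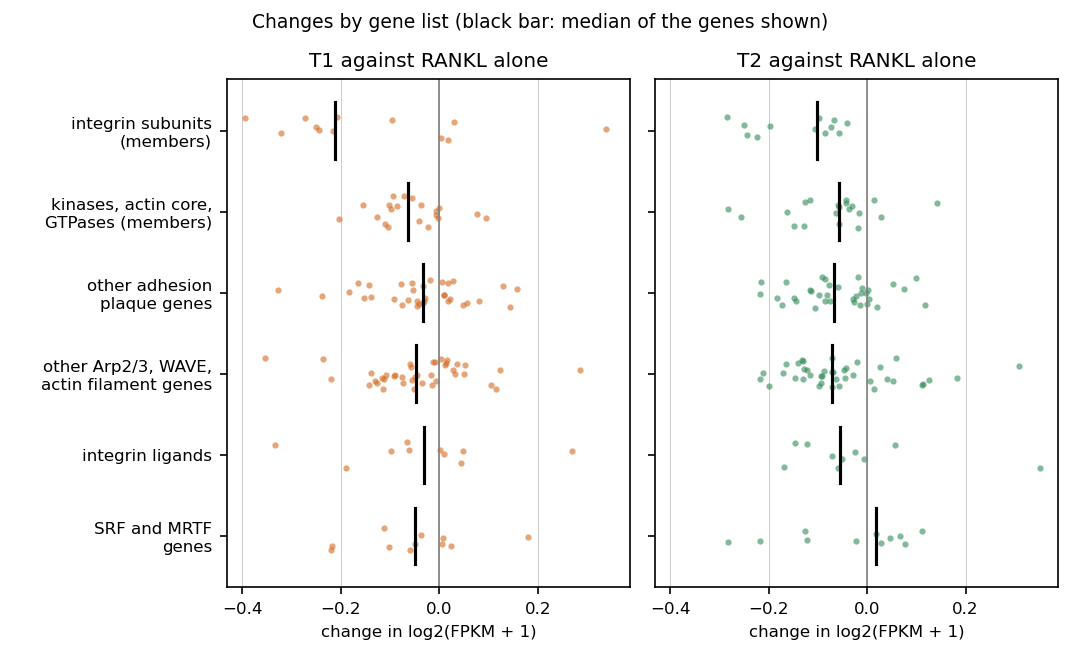
Log2 difference in FPKM + 1 against RANKL alone for each gene past the limit, in T1 and T2, for the integrin subunits, the named kinase, actin and GTPase genes, and each list, with medians as black bars. Medians run from -0.21 for integrin subunits in T1 to 0.02 for the SRF and MRTF list in T2.

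The lower values of these genes stood beside lower osteoclast markers. In T1, 6 of 7 osteoclast markers past the limit were lower, with 4 beyond counting error, and 1 was higher beyond it. In T2, all 7 were lower beyond counting error. Of the 5 macrophage markers past the limit, 2 were lower and 2 higher beyond counting error in T1, and 2 and 3 in T2. The median was 33128 reads for the osteoclast markers and 13868 for the macrophage markers. Of all genes of at least 5000 reads, 22.5% were lower and 18.5% higher beyond counting error in T1, and 27.0% and 17.2% in T2. The 5000 reads are a floor, and depth was not matched. The part that osteoclast content of the culture had in the integrin and podosome values was not tested.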

How the data were processed

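RNA was sequenced from 3 libraries, 1 per group, prepared with the SMARTer mRNA kit per the labels' protocols. The authors deposited FPKM per gene, with gene length in bases as another column, and 0 columns of per-sample values went unused. The builds are GRCm38 and mm10 per the submitters' processing notes. Which aligner, counter, annotation release and treatment of strand were used is not given in the sources used here.

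FPKM times gene length came out as whole reads (within 0.01) for 100% of values, which gave read counts for exact conditional (Clopper-Pearson) 95% intervals of ratios. Differences are in log2(FPKM + 1), a pseudocount of 1, which understates changes of low genes. Counts cover genes whose mean reached 1 FPKM. The 1.2-fold size rule was an absolute log2 difference of at least 0.26. With 1 library per group no test was run. The interval code was tested on simulated data.

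Every gene of the family past the limit is named, and from each list the 2 largest rises and 2 largest falls per TSH comparison (at least 100 reads), plus Actb, Spp1 and Fn1. A gene list and a gene ratio are not reported here. Members and lists were chosen with earlier results of these data known. Near-identical copies were found with BLAST+ 2.17.0 in GENCODE M21 transcripts, at no less than 95% identity over 100 bases and 50% of the shorter transcript. Alternatives were other pseudocounts, filters, folds and scalings, leaving out genes with copies or overlaps, and shares of reads. Software: numpy 2.4.6, scipy 1.17.1, pandas 2.3.3, matplotlib 3.10.9, Python 3.11.15.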

Additional observations from a re-analysis of the deposited data

How the results depend on the processing

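The genes lower beyond counting error numbered 14 to 21 in T1 and 15 to 20 in T2 over the alternatives run, and no gene past the size rule or the counting interval changed sign. Counts under the size rule followed its settings by construction. In T1 the lower count of 3 became 5 with a pseudocount of 0.1, 0 with 5, 1 with a mean of at least 5 FPKM, 10 at 1.1-fold and 0 at 1.5-fold or 2-fold. The higher count of 1 became 0 with a pseudocount of 5, a mean of at least 5 FPKM, 1.5-fold, 2-fold or without genes that have copies. In T2 the lower count of 2 became 4 with a pseudocount of 0.1, 0 with 5, 1 with a mean of at least 5 FPKM, 9 at 1.1-fold and 0 at 1.5-fold or 2-fold, and the higher count of 0 became 1 at 1.1-fold. For T2 against T1 the lower count of 2 became 0 with a pseudocount of 5, a mean of at least 5 FPKM, 1.5-fold or 2-fold and 1 with equal totals or without copies, and the higher count of 0 became 3 at 1.1-fold. Beyond counting error, 2 higher genes in T1 became 1 with a mean of at least 5 FPKM or equal totals and 0 without copies, 1 in T2 became 0 without copies, and 3 in T2 against T1 became 8 with equal totals. The T1 median of -0.09 ran from -0.115 with equal totals to -0.024 with no filter, which adds genes near 0 by construction, and the T2 median of -0.07 from -0.11 without copies to -0.056 with no filter. The median of T2 against T1, -0.0089, turned to 0.024 with equal totals and to 0.014 without the 9 genes that overlap a gene with reads. The cause was not tested. Equal totals moved the median of all genes by at most 0.03. By reads and not FPKM, with RANKL alone, Itgav held 55.3%, Itga5 13.7% and Itga4 28.1% of alpha reads, and Itgb2 47.4%, Itgb1 28.7%, Itgb7 8.98%, Itgb3 11.2% and Itgb5 3.67% of beta reads. Counts beyond counting error, the genes of at least 5000 reads and the leaving out of overlapping genes were added after seeing the data. No library could be left out, because each comparison has 1 on each side. No paired analysis was possible because each group has 1 library. The 17 genes under 1 FPKM were too shallow to compare.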

Other observations

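Ilk, encoding the integrin-linked kinase that works with parvins at beta tails, was listed at 0.136 FPKM from 6 reads with RANKL alone, with 15 reads in T1 and 2 in T2, although its partner gene Parvg was at 57.7 FPKM. The Ilk exons share 2106 bases with Taf10 on the other strand, which had 1678, 1850 and 1793 reads, and 355 bases with Rrp8. How strand and shared reads were counted is not given in the sources used here, so this value may not measure Ilk RNA.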
